A study of Arabidopsis thaliana with 8 samples.

Results

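A group of 25 Arabidopsis thaliana genes stood far higher in protoplasts than in roots, in wild-type (WT) and in hira plants alike. A protoplast is a plant cell whose wall has been digested away. Values come from arrays on which a probe set, a group of probes, reads a transcript, and each probe set was centred to a median of 0 over the 8 arrays. A gene was taken when the lowest of the 4 protoplast arrays lay at least 3 log2 units above the highest of the 4 root arrays, a distance called the gap here. In all 77 probe sets passed this gap. Of these, 28 were listed with 1 gene, 4 with several genes and 45 with no gene in the annotation used. JRG21, LEA4-5 and IAA30 passed with gaps of 6.52, 4.93 and 3.61 and were left out by name, which left 25 of the 13356 genes with a single-gene probe set. Each has 1 such probe set.

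The 8 arrays came in 4 groups of 2: roots of WT plants, protoplasts of WT plants, roots of hira plants and protoplasts of hira plants. The labels name the background hira without an allele, and give neither plant age nor digestion time. They list enzyme digestion for the root samples as well, so whether those roots met the enzymes cannot be told. Nothing in the labels says that replicates were separate plants or digestions, so the p-values rest on a spread that could be technical. HIRA is a histone chaperone that places histone H3.3 on DNA outside replication, and the series asks how the hira background alters the dedifferentiation that follows wall digestion.

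Wall digestion wounds the tissue, changes the osmotic surroundings of the cell and removes its contact with neighbours. Plant cells that lose water make late embryogenesis abundant (LEA) proteins, which protect other proteins and membranes as cells dry, and they adjust the hormone abscisic acid. Wounded cells make jasmonates, hormones that are later inactivated by oxygenases. Cells short of oxygen or under heat switch on other sets of genes, among them the small heat shock proteins, which hold unfolded proteins. RefSeq names only ATHSP22.0, SIS and, as a synonym, AT5G52050 among the 25, so the family or role given with the other locus codes is general background. Genes are grouped below by such roles, and the groups were formed with the values known.

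Centred values show differences between arrays and no expression level, so root or protoplast identity could not be checked by the presence of markers. The 3 cell type markers measured by single-gene probe sets were EXPA7, AT1G62500 and RCA, and none had a gap above 0. A gap above 0 shows only genes higher on every protoplast array. Protoplast minus root was 1.86 in WT and -2.85 in hira for EXPA7, 0.003 and -0.27 for AT1G62500, and 0.12 and -0.66 for RCA. Of these only the hira difference of AT1G62500 had an adjusted p under 0.05 (limma adjusted p = 0.0064). Bulk RNA cannot tell fewer cells of a type from less RNA per cell. In the GAPDH control, the 5′ minus 3′ difference was between -2.24 and -2.19 on the WT root arrays and between -0.10 and 0.75 on the other 6. In the actin control it was lowest in WT roots too, at -2.14 and -1.48, and highest in WT protoplasts, at 1.75 and 1.30. The hira arrays lay between these, at -0.35 and -0.16 in roots and at 0.22 and 0.30 in protoplasts. The part of this in the values below was not tested.

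The gaps of the 25 genes ran from 3.01 to 7.07, with a median of 3.66. In WT, protoplasts exceeded roots by 3.49 to 7.70 with a median of 5.36, and in hira by 3.43 to 8.70 with a median of 5.32. These differences chose the genes and are given without a test, and the SE of a difference, over 2 arrays in each group, was 0.27 to 1.23. As a background, limma called 25.6% of all 22746 probe sets in WT and 24.2% in hira (adjusted p under 0.05), with 11.7% higher in protoplasts in WT and 12% in hira. Just inside the threshold lay AT1G60730 (3.01), AT1G75960 (3.09) and AT5G67350 (3.10), and just outside lay AT1G28760 (2.98), AT1G52560 (2.94) and AT1G29195 (2.90). The gaps thus run on across the threshold without a break. Values below are as deposited, and statements that hira lay above or below WT in roots hold on that scale, since quantile normalization between arrays turned the sign of the root difference for 12 of the 25 genes.

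**Figure D1:**
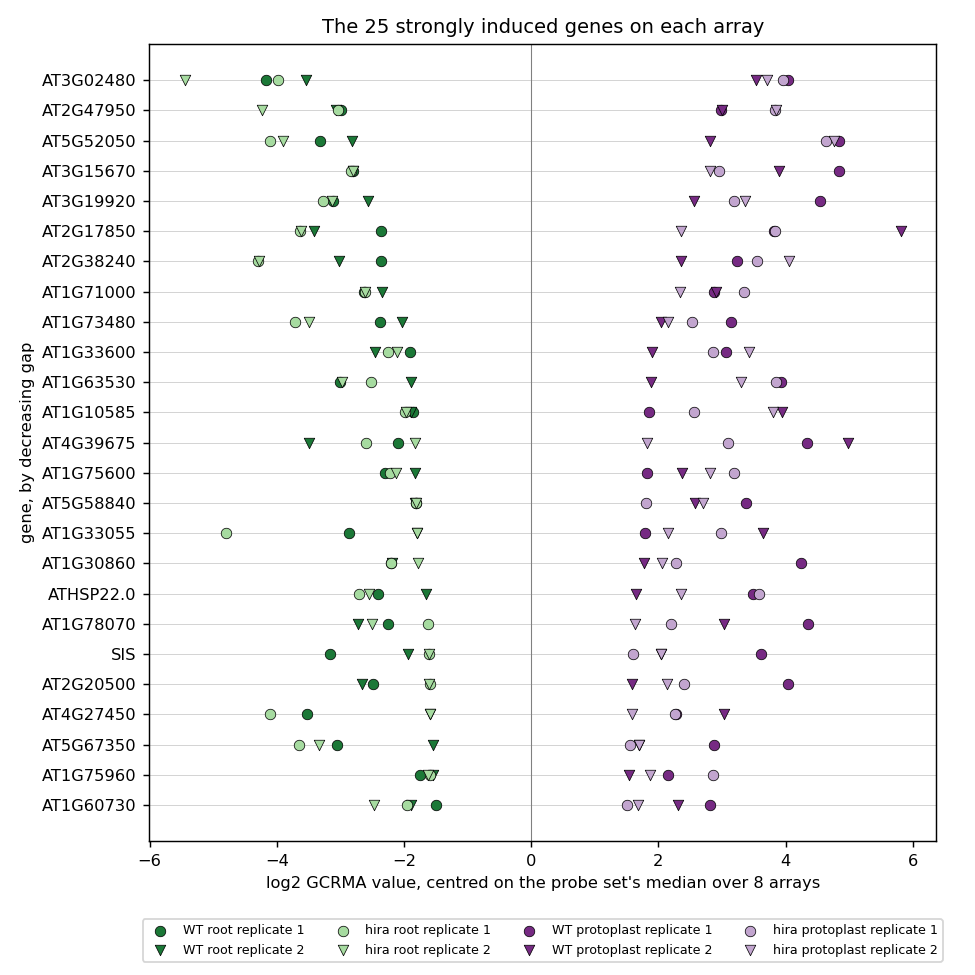
Centred log2 value of the 25 genes on each of the 8 arrays, with roots in green, protoplasts in purple, WT in dark and hira in light shades, and replicate 1 as circles and replicate 2 as triangles. Roots lie left of 0 and protoplasts right of 0 for every gene by the way the genes were chosen, and gaps shrink from 7.07 for AT3G02480 to 3.01 for AT1G60730.

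Genes tied to water deficit and abscisic acid held 3 of the 4 largest gaps. AT3G02480, a small LEA family protein, was at -4.17 and -3.54 in WT roots, -3.98 and -5.44 in hira roots, 4.04 and 3.54 in WT protoplasts, and 3.96 and 3.71 in hira protoplasts. Its 4 protoplast arrays lay within 0.51 log2 of each other, and WT and hira overlapped in roots and in protoplasts. The mean difference between protoplasts and roots was 7.65 in WT, or 200.4-fold, and 8.55 in hira, or 374-fold. A second LEA family gene, AT3G15670, was nearly level on the 4 root arrays, from -2.83 to -2.81. In protoplasts it was at 4.84 and 3.89 in WT and at 2.95 and 2.81 in hira, so the hira arrays lay below both WT arrays. Root values this close may sit at the signal floor, which centred values cannot show, and the difference between protoplasts and roots may then be a lower bound.

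AT5G52050 (DTX50), a MATE family carrier that exports abscisic acid from cells, had the largest hira difference of the 25, 8.70 against 6.89 in WT. It was at -3.32 and -2.81 in WT roots, -4.10 and -3.90 in hira roots, 4.84 and 2.81 in WT protoplasts, and 4.64 and 4.76 in hira protoplasts. The hira root arrays were both below the WT root arrays, while the WT protoplast arrays were 2.03 apart and enclosed the hira arrays. SIS, named in RefSeq as Salt Induced Serine rich, went the other way, with 5.38 in WT and 3.43 in hira. Its hira root arrays, at -1.60 and -1.61, stood above the WT root arrays at -3.16 and -1.94, and its protoplast arrays, at 3.62 and 2.04 in WT and 1.60 and 2.05 in hira, overlapped.

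AT2G38240, a 2-oxoglutarate-dependent oxygenase of the family that inactivates jasmonate by hydroxylation, had the largest difference in response between the genotypes on the side of hira. It was at -2.36 and -3.01 in WT roots and at -4.29 on both hira root arrays. These hira root values, 0.002 apart, may sit at the signal floor, which centred values cannot show. In protoplasts AT2G38240 was at 3.23 and 2.36 in WT and at 3.56 and 4.05 in hira. As deposited hira was thus lower in roots and higher in protoplasts, with no overlap in either, and the difference between protoplasts and roots was 5.48 in WT and 8.09 in hira. The left-out gene JRG21 encodes an oxygenase of the same family and differed by 6.85 in WT and 8.22 in hira.

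Both chaperone genes had protoplast arrays that overlapped between genotypes, with mean differences of -0.05 (SE 0.34) for AT1G71000 and 0.40 (SE 0.76) for ATHSP22.0. AT1G71000, a DnaJ domain protein, which is a co-chaperone type, was between -2.63 and -2.34 on the root arrays, at 2.88 and 2.91 in WT protoplasts and at 3.35 and 2.34 in hira protoplasts. ATHSP22.0, a small heat shock protein of the endoplasmic reticulum, was between -2.71 and -1.65 in roots, at 3.49 and 1.65 in WT protoplasts and at 3.59 and 2.36 in hira protoplasts. For ATHSP22.0 replicate 1 exceeded replicate 2 by over 1 log2 unit in both kinds of protoplast, by 1.85 in WT and 1.23 in hira.

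AT2G17850, AT4G39675, AT1G33055 and AT4G27450 are known as genes induced when Arabidopsis seedlings lack oxygen. AT2G17850 encodes a rhodanese domain protein, and AT4G27450 a protein with YGL and LRDR motifs first described after aluminium treatment. AT2G17850 was at -2.36 and -3.41 in WT roots, at -3.63 on both hira root arrays, at 3.82 and 5.81 in WT protoplasts and at 3.83 and 2.36 in hira protoplasts. Its hira root arrays, 0.004 apart, may sit at the signal floor as well. AT4G39675 was at -2.09 and -3.49 in WT roots, -2.60 and -1.83 in hira roots, 4.34 and 4.98 in WT protoplasts, and 3.09 and 1.83 in hira protoplasts. AT2G17850 had the largest WT difference of the 25 (7.70), and AT4G39675 the third largest (7.45) with a far smaller value in hira (4.67).

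The other pair of low-oxygen genes varied more between root arrays than between genotypes. AT1G33055 was at -2.86 and -1.80 in WT roots and at -4.80 and -1.79 in hira roots, and AT4G27450 was at -3.53 and -1.59 in WT roots and at -4.10 and -1.59 in hira roots. In both genes replicate 1 was the lower root array in WT and in hira. In WT protoplasts AT1G33055 was at 1.79 and 3.65 and AT4G27450 at 2.28 and 3.04, and in hira protoplasts at 2.98 and 2.16 and at 2.26 and 1.59.

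These 4 genes shared an order of the replicates in each kind of protoplast. Most other members did not have it in WT protoplasts, while in hira protoplasts it was the more common order. In WT protoplasts replicate 2 was higher for 4 of the 4, with replicate 1 minus replicate 2 from -1.99 to -0.64, against 4 of the other 21 genes. In hira protoplasts replicate 1 was higher for 4 of the 4, by 0.67 to 1.47, against 11 of the other 21. Over all probe sets tested replicate 1 was the higher array for 43.4% in WT protoplasts and for 64.7% in hira protoplasts. In protoplasts the mean was lower in hira than in WT for 4 of the 4, with differences from -2.20 to -0.15 and a median of -1.23, and none passed the test. It was lower for 3 of the 4 after quantile normalization, without WT protoplast replicate 2 and without hira protoplast replicate 2. The grouping was made with the values known, so these counts are a description with no test.

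AT1G75600 encodes a histone H3 of the H3.3-like type. It was at -2.30 and -1.82 in WT roots, -2.22 and -2.12 in hira roots, 1.82 and 2.37 in WT protoplasts, and 3.19 and 2.81 in hira protoplasts. Roots of the genotypes overlapped and the hira protoplast arrays were both above the WT ones, by 0.91 between the means (SE 0.27, limma adjusted p = 0.103). A further probe set is listed with AT1G75600 and AT1G13370 together, had a gap of 3.44 and is not among the 25 because it reads several genes. On it hira protoplasts, at 2.98 and 2.83, were higher than WT protoplasts, at 1.73 and 1.72, by 1.18 (SE 0.17, limma adjusted p = 0.0327). Which of the listed genes that signal comes from cannot be told, and the probe sets share the gene and the RNA samples.

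Among members with regulatory or signalling roles, AT1G10585, a basic helix-loop-helix factor, was nearly level in roots, from -1.98 to -1.86. In protoplasts it was at 1.86 and 3.94 in WT and at 2.55 and 3.80 in hira, with replicate 2 higher in both genotypes and full overlap. AT1G30860, a RING domain protein, was between -2.20 and -1.78 in roots, at 4.24 and 1.78 in WT protoplasts and at 2.28 and 2.05 in hira protoplasts. The 2.46 between its WT protoplast arrays was the widest such difference among the 25 genes.

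AT1G78070, a WD40 repeat protein, was between -2.72 and -1.63 in roots, at 4.36 and 3.03 in WT protoplasts and at 2.20 and 1.63 in hira protoplasts, where the genotypes did not overlap. AT1G33600, a leucine-rich repeat protein, was between -2.46 and -1.90 in roots, at 3.06 and 1.90 in WT protoplasts and at 2.86 and 3.42 in hira protoplasts. The WD40 gene thus had the smaller difference in hira (3.98 against 6.18) and the leucine-rich repeat gene the larger (5.32 against 4.66).

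The 4 enzyme genes had gaps between 3.01 and 4.08. AT1G73480, an alpha/beta hydrolase of the monoacylglycerol lipase family, was lower in hira roots, at -3.71 and -3.49, than in WT roots, at -2.38 and -2.04, and overlapped in protoplasts, at 3.15 and 2.04 in WT and 2.53 and 2.14 in hira. Its root difference of -1.39 (SE 0.41) was -0.55 (SE 0.39, limma adjusted p = 0.536) after quantile normalization. AT5G58840, a subtilase protease, was between -1.83 and -1.81 on the 4 root arrays, at 3.37 and 2.58 in WT protoplasts and at 1.81 and 2.70 in hira protoplasts. AT1G75960, an AMP-dependent synthetase and ligase family member, was between -1.74 and -1.54 in roots, at 2.15 and 1.54 in WT protoplasts and at 2.85 and 1.87 in hira protoplasts. AT1G60730, an aldo-keto reductase, was between -2.47 and -1.50 in roots, at 2.81 and 2.31 in WT protoplasts and at 1.50 and 1.68 in hira protoplasts. Protoplasts of the genotypes overlapped for AT5G58840 and AT1G75960 and did not for AT1G60730, which was lower in hira.

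No role is given here for AT2G47950, AT3G19920, AT1G63530, AT2G20500 and AT5G67350. AT2G47950 had the second largest gap, 5.98, and protoplast replicates that nearly coincided, at 2.99 and 3.01 in WT and at 3.83 and 3.85 in hira. Its root arrays were at -2.99 and -3.08 in WT and at -3.05 and -4.23 in hira. AT3G19920 was between -3.27 and -2.57 in roots, at 4.54 and 2.57 in WT protoplasts and at 3.18 and 3.36 in hira protoplasts. Its means gave nearly the same difference in both genotypes, 6.39 and 6.47, although its WT protoplast arrays lay 1.97 apart.

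AT1G63530 was between -3.01 and -1.89 in roots, at 3.93 and 1.89 in WT protoplasts and at 3.85 and 3.31 in hira protoplasts. AT2G20500 was at -2.49 and -2.66 in WT roots, -1.59 and -1.60 in hira roots, 4.04 and 1.59 in WT protoplasts, and 2.41 and 2.13 in hira protoplasts. AT5G67350 was at -3.05 and -1.55 in WT roots, -3.65 and -3.34 in hira roots, 2.88 and 1.70 in WT protoplasts, and 1.55 and 1.70 in hira protoplasts. In roots AT2G20500 was higher and AT5G67350 lower in hira without overlap.

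The genotype contrasts were not the contrast that chose the genes, and they address the question of the series, whether hira alters the response. None of the 25 genes passed the test between hira and WT protoplasts, between hira and WT roots, or for the difference between the genotypes' responses (limma on all 8 arrays, Benjamini-Hochberg over 22746 probe sets). Over all probe sets tested 8.29% were called between protoplasts (5.05% higher and 3.24% lower in hira), 9.19% between roots (4.91% higher and 4.28% lower) and 4.87% for the difference in response (2.61% larger and 2.26% smaller in hira). Unadjusted p lay under 0.05 for 5, 2 and 6 of the 25 genes, against 30.8%, 26.0% and 27.8% of all probe sets. The rule admits no gene that stays low in the protoplasts of 1 genotype or high in its roots, so some large genotype effects were barred from the group from the start.

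**Figure D2:**
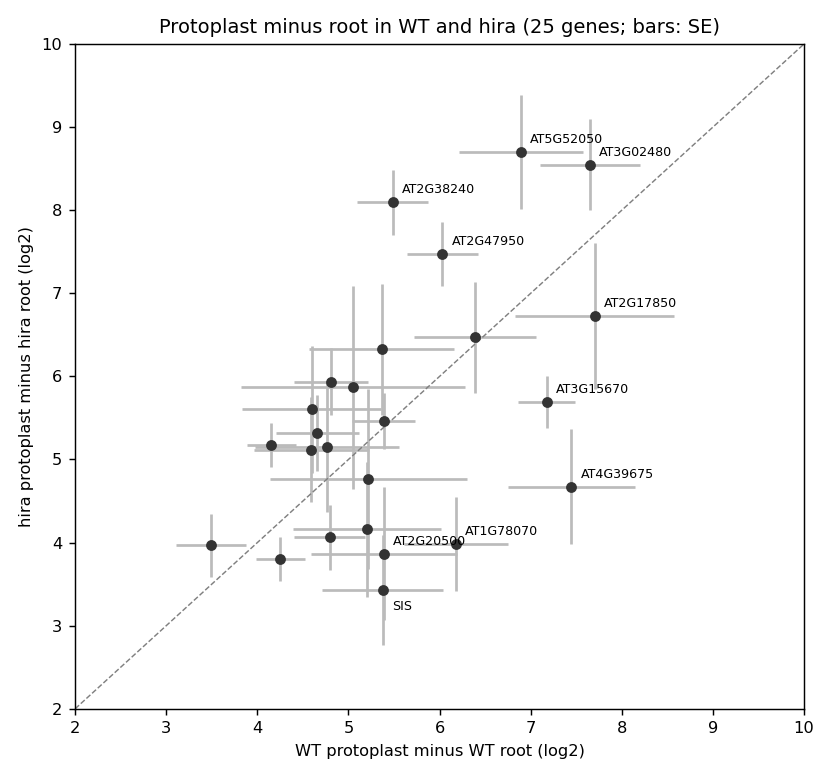
Protoplast minus root difference in WT (horizontal axis, log2) and in hira (vertical axis, log2) for the 25 genes, with standard errors as bars and equality as a dashed line. AT2G38240 lies farthest above the line (8.09 in hira, 5.48 in WT) and AT4G39675 farthest below it (4.67 in hira, 7.45 in WT).

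These tests had little precision. The median SE of a genotype difference was 0.63 for the 25 genes against 0.21 over all probe sets tested, and 0.26 for the 46 genes chosen by the mirrored rule, with roots at least 3 above protoplasts. Of those 46 genes, 4 (8.70%) were called between protoplasts, 8 (17.4%) between roots and 9 (19.6%) for the difference in response. Over all probe sets tested the shares were 8.29%, 9.19% and 4.87%. The 95% interval of the difference between protoplasts stayed within 1 log2 unit of 0 for 1 of the 25 genes, AT1G71000, from -0.94 to 0.84. In roots it did so for AT1G75600, from -0.81 to 0.58, and AT3G15670, from -0.83 to 0.81. A lack of calls therefore does not show that the genotypes were alike.

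Given next are the genes with the lowest adjusted p in each genotype contrast and those at either extreme of the difference in response. They were picked with the values known and none passed the test, so they are not set apart from the other members. For AT2G38240 the response was larger in hira by 2.61 (95% interval 1.17 to 4.05, limma adjusted p = 0.0693), and the root difference was -1.60 (interval -2.62 to -0.58, adjusted p = 0.0746). After quantile normalization the response was larger in hira by 2.19 (limma adjusted p = 0.0672), the root difference was -0.66 (SE 0.33, adjusted p = 0.346) and the protoplast difference went from 1.01 to 1.53 (adjusted p = 0.058). For AT3G15670 the protoplast difference was -1.49 (interval -2.30 to -0.67, limma adjusted p = 0.057). For AT4G39675 the response was lower in hira by 2.78 (interval from -5.34 to -0.21, limma adjusted p = 0.159). These intervals are for each gene alone and are not adjusted for the number of probe sets.

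Leaving out 1 array moved several genes across the threshold, in fits where the group concerned was 1 array and its spread was assumed to be that of the other groups. AT2G20500 and AT1G30860 have WT protoplast arrays over 2 log2 units apart, and their direction turned with the array kept. Without WT protoplast replicate 2 they were lower in hira protoplasts by limma, at -1.77 and -2.07 (adjusted p = 0.0263 and 0.0367), and without replicate 1 they were at 0.68 and 0.39 (limma adjusted p = 0.0971 and 0.360). AT3G15670 was lower in hira protoplasts in both fits, at -1.96 and -1.01 (limma adjusted p = 0.00907 and 0.0261). Its SE fell from 0.31 to 0.07 there, since the spread then came mostly from arrays that lay close together, root arrays at about -2.81 among them.

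AT2G47950 depended in the same way on the hira root arrays, of which replicate 1, at -3.05, lay level with WT roots and replicate 2, at -4.23, did not. With replicate 2 alone its root difference was called at -1.19 (limma adjusted p = 0.00532), and its SE of 0.05 came from the near-identical replicates of the other groups. Leaving out either hira root array also brought its protoplast difference of 0.84 past the threshold (limma adjusted p = 0.0203). Without either WT protoplast array AT2G20500 was called higher in hira roots (0.98, limma adjusted p = 0.0387). The difference in response was called for AT2G47950 without either hira root array, for AT3G15670 without either WT protoplast array and for AT2G20500 without WT protoplast replicate 2. In each of these fits 1 group held a lone array, so the calls are given as a description only.

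Direction across the group depended on quantile normalization and little on the other rescaling, which centred the arrays on the least variable probe sets. As deposited, 18 of the 25 genes had a lower mean in hira roots and 7 a higher one, with a median of -0.28 against -0.004 over all probe sets tested. After quantile normalization 6 were lower and 19 higher, with a median of 0.38. In protoplasts 15 were lower and 10 higher in hira as deposited, with a median of -0.26 against -0.05, and 11 were lower and 14 higher after quantile normalization, with a median of 0.08. Without WT protoplast replicate 1 the protoplast count was 12 lower and 13 higher. The response was larger in hira for 15 and smaller for 10, with a median of 0.39 against -0.05, while quantile normalization gave 13 and 12 with a median of 0.01, and leaving out WT root replicate 2 gave 12 and 13. Centring on the least variable probe sets gave 17 lower and 8 higher in hira roots, with a median of -0.28. In protoplasts it gave 14 lower and 11 higher, with a median of -0.20. The response was then larger in hira for 15 and smaller for 10, with a median of 0.44. Which scaling suits these arrays better was not tested, so no direction of the group as a whole can be read from these counts.

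The hira and WT arrays did not overlap for 3 genes higher and 6 lower in hira protoplasts, against 24.3% and 51.4% of all probe sets, and in roots for 3 higher and 9 lower, against 23.5% and 23.9%. After quantile normalization these counts were 7 and 4 in protoplasts, against 31.8% and 36.7% of all probe sets on that scale. In roots they were 12 and 2, against 22.7% and 25.9%. The differences between protoplasts and roots were less affected, with medians of 5.61 in WT and 5.40 in hira after quantile normalization.

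**Figure D3:**
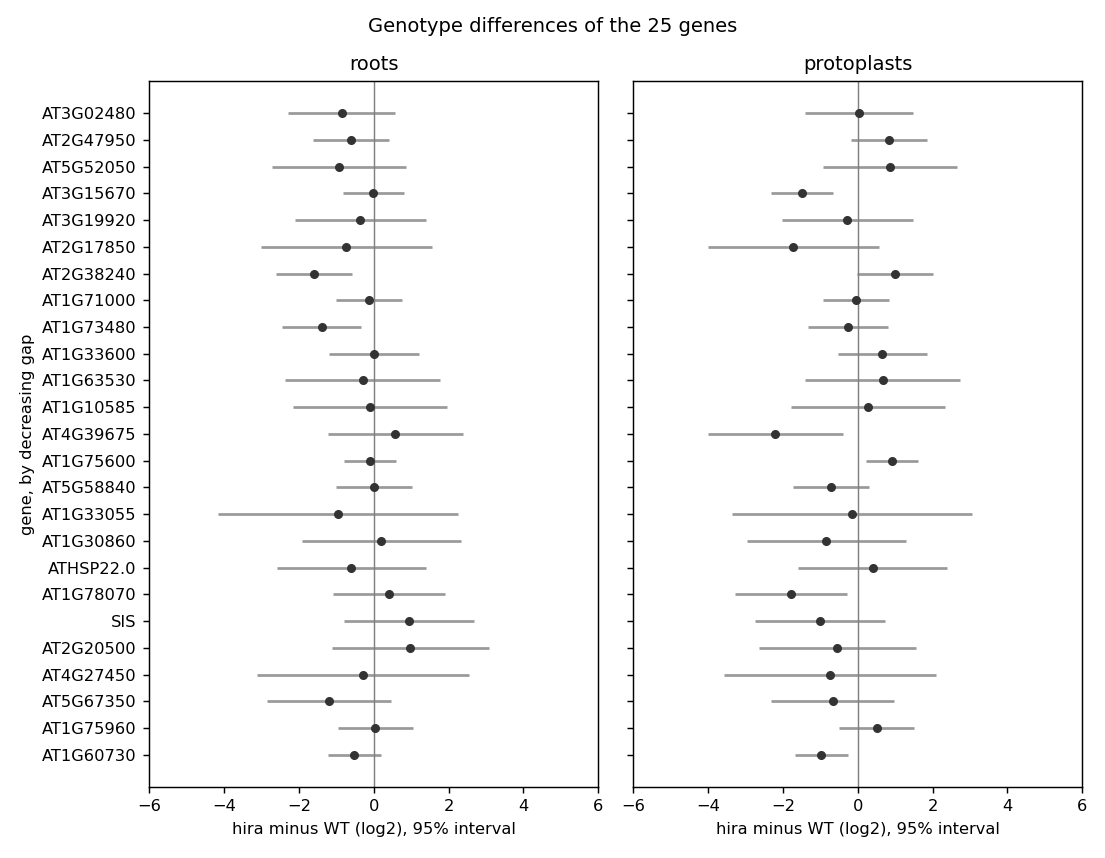
Difference hira minus WT in roots (left) and in protoplasts (right) for the 25 genes on the log2 scale, with the 95% interval of each gene from the limma fit as bars. Most intervals cross 0, and those that do not belong in roots to AT2G38240 (-1.60) and AT1G73480 (-1.39) and in protoplasts to AT3G15670, AT4G39675, AT1G75600, AT1G78070 and AT1G60730. Values are as deposited, and after quantile normalization both root differences were under 1 (-0.66 and -0.55).

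Replicate arrays disagreed most in WT protoplasts. The median absolute difference between replicates over the 25 genes was 1.16 in WT protoplasts, 0.49 in hira protoplasts, 0.50 in WT roots and 0.17 in hira roots. Over all probe sets tested the medians were 0.16, 0.09, 0.21 and 0.17. In WT protoplasts 14 of the 25 genes differed by 1 log2 unit or more, and replicate 1 was the higher array for 17. In hira roots 10 genes differed by less than 0.1, where values near a signal floor cannot be told from close agreement.

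The arrays that set the gaps were uneven as well. WT protoplast replicate 2 was the lowest protoplast array for 11 of the 25 genes and WT root replicate 2 the highest root array for 12. Over the 3177 probe sets with a gap above 0 these arrays held those places for 28.6% and 39.9%. Without WT protoplast replicate 2 the rule gave 44 genes and without WT root replicate 2 it gave 55, while leaving out any other array gave 26 to 33. Leaving out an array can only widen a gap, so the 25 stayed among them by construction.

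**Figure D4:**
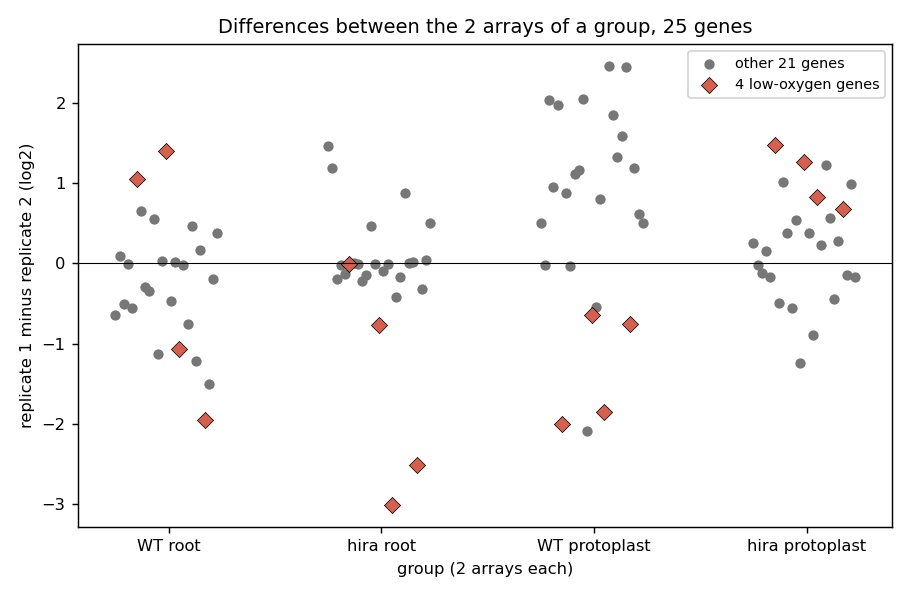
Replicate 1 minus replicate 2 (log2) in each of the 4 groups for the 25 genes, with the 4 low-oxygen genes as red diamonds and the other 21 as grey points, spread sideways for legibility. In WT protoplasts the diamonds all lie below 0 and most grey points above it. In hira protoplasts the diamonds all lie above 0, with 10 of the grey points below it.

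The 25 genes lay apart from each other in the genome. The rule did not use position, and in RefSeq gene order on TAIR10.1 no pair was adjacent, the closest being 36 places apart. Chromosome 1 held 11 of them, against 25.5% of single-gene probe sets. Immediate neighbours were measured for 21 members by 27 probe sets, of which limma called 6 higher in WT protoplasts and 7 higher in hira protoplasts than in roots, beside the backgrounds of 11.7% and 12%, and 5 lower in WT and 2 lower in hira, beside 13.9% and 12.2%. The neighbours' median differences were 0.04 in WT and -0.01 in hira.

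Among the neighbours, 4 were picked after their values were seen. AT1G78060, next to AT1G78070, fell by 4.34 in WT and 3.18 in hira (limma adjusted p = 0.00277 and 0.0059), opposite to its member. AT4G39670, next to AT4G39675, rose by 3.74 in WT and 3.52 in hira (limma adjusted p = 0.00293 and 0.00365). AT1G33590, next to AT1G33600, rose by 2.43 in WT and 3.94 in hira (limma adjusted p = 0.0195 and 0.0063). AT5G67340, next to AT5G67350, rose in hira by 2.70 (limma adjusted p = 0.01) and differed by 0.21 in WT (adjusted p = 0.671).

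Better-known stress genes are thinly covered here. Of 78 loci in 7 lists of stress pathways, 10 had a single-gene probe set, and none of the 10 is a member. Among them COR47, STZ and AER were to be left out by name whatever their values, and their gaps were 1.68, 1.21 and 1.94. In the abscisic acid and dehydration list limma called 1 of 3 genes higher in WT protoplasts than in WT roots, where COR47, a dehydrin, differed by 4.80. It called 0 of 3 in hira, with 1 of 3 at an unadjusted p under 0.05 and COR47 at 2.01. COR15A and COR15B, cold-induced chloroplast proteins of the LEA type, differed by 0.03 and 0.16 in WT and by -0.01 each in hira.

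In the elicitor and wound list 0 of 2 genes passed in WT, with 1 of 2 at an unadjusted p under 0.05, and 2 of 2 rose in hira. These were STZ, a stress zinc finger factor, at 1.89 in WT and 6.05 in hira, and WRKY53, a defence and senescence factor, at -0.65 in WT and 2.78 in hira. In the senescence and starvation list WRKY6, a transcription factor, rose in both genotypes, by 1.68 in WT and 2.70 in hira, and SAG101, a lipase-like defence protein, fell by 2.36 in WT. In the detoxification list AER, an alkenal reductase, rose in both, by 3.01 in WT and 7.66 in hira, AT2G21640 fell in both, by 2.14 and 3.30, and GSTU25, a glutathione transferase, rose by 0.82 in WT and fell by 1.52 in hira. The jasmonate, heat shock and low-oxygen lists had no measured gene, so the members with such roles could not be set beside them.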

How the data were processed

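RNA of 8 Affymetrix arrays (3'-IVT labelling) was measured, 2 arrays in each of 4 groups taken from the titles. The deposited log2 values were made with GCRMA, per the submitters' processing notes, and the authors' table holds them centred to a median of 0 for each probe set. The notes state neither the centring nor the log base, and log2 is taken because GCRMA gives it. Depth has no meaning here, and the number of arrays limits precision. Genes came from the platform annotation and RefSeq, with 13436 of 13513 single-gene probe sets matched. Probe sets of several genes (503) or of none listed (8794) and 64 controls were set apart. Contrasts were fitted with limma 3.58.1 in R 4.3.3 (4 group means, eBayes, two-sided, Benjamini-Hochberg over the 22746 probe sets that are not controls, called at an adjusted p under 0.05), with 4 residual degrees of freedom, and the script was tested on simulated data. The members and lists were chosen with earlier results of these data known. Named are all members, which goes beyond the rule set for naming (symbols, the 10 largest gaps, the 3 just inside and outside, up to 2 called list genes per direction), the uncalled COR15A and COR15B, and 4 neighbours. The HIRA transcript was not analysed here, and the names of the array groups were not checked against it. No sequence or promoter was used here. Alternatives were other gaps, normalizations, fits, filters and each array left out.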

Additional observations from a re-analysis of the deposited data

How the results depend on the processing

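A gap of 2 gave 81 genes, a gap of 4 gave 9, group means in place of array extremes 60, probe sets of several genes or none counted as well 74, and leaving out each array 26 to 55. Genes called between protoplasts were 0, but 2 of those by a gap of 2, 1 with trend and robust eBayes, 1 with SD of at least 0.2, 1 from only the 4 arrays compared, and 0 to 3 with an array left out. Between roots they were 4 by a gap of 2, 1 with the SD filter and 0 to 1 with an array left out, and for the difference in response 1, 1 and 0 to 2. In settings without a lone array AT3G15670, AT2G47950 and AT2G38240 passed in at least 1 contrast. AT2G20500 and AT1G30860 passed only without a replicate, in fits resting on a lone array. Between protoplasts AT3G15670 passed with trend and robust eBayes and with the SD filter (limma adjusted p = 0.0398 and 0.0396). AT2G47950 passed between protoplasts from only the 4 arrays compared (limma adjusted p = 0.0386). With the SD filter AT2G38240 passed in roots and in the difference in response (limma adjusted p = 0.0348 and 0.0368). Of 1025 alternative values of the 25 genes' genotype differences 65 had another sign than the main value, none of them called. Of these, 18 arose under quantile normalization and 2 with centring on the least variable probe sets. Probe sets called between protoplasts numbered 1885, but 4773 with trend and robust, 695 from only the 4 arrays, and 139 to 1559 with an array left out. Between roots they numbered 2090, but 1332 after quantile normalization, 0 from only the 4 root arrays (4548 at an unadjusted p under 0.05), and 495 to 3085 with an array left out. For the difference in response they numbered 1108, but 610 with trend and robust and 142 to 2185 with an array left out. The cause of these shifts was not tested. Over all probe sets tested, the share called between protoplasts was 20.98% with trend and robust, 9.25% with the SD filter and 3.06% from only the 4 arrays. With the SD filter it was 16.82% between roots and 8.82% for the difference in response. Genes by a gap of 2 stand beside the main shares of 8.29%, 9.19% and 4.87%. A single member called in such a setting is thus not set apart from other probe sets. Over all probe sets, same-numbered samples did not deviate together (correlations from -0.10 to 0.05). A correlation over all probe sets cannot show whether same-numbered samples shared a preparation that moved some genes, and the labels do not say. With the replicate block 0 members were called, and 789, 1030 and 302 probe sets in the 3 contrasts.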
